A study of Homo sapiens with 9 samples.

Results

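The E2F transcription factors E2F1 to E2F8, their dimerisation partner gene TFDP1 and the retinoblastoma gene RB1 were examined for Argonaute (Ago) binding in cells given miR-342. These 10 genes, of 20163 protein-coding genes on the nuclear chromosomes, were taken by name, and a peak was assigned to a gene when its midpoint lay in the gene body on the gene's strand. Seed matches in their exons were listed whether a peak lay there or not. MDA-MB-231HM (231HM) is a highly metastatic variant of a human triple-negative breast cancer (TNBC) cell line, with wild-type genotype in the labels. The cells were transfected for 48 h at 20 nM with a negative control mimic or a mimic of either arm of miR-342, 3p or 5p, in 3 replicates each and 9 libraries in all. In Ago-HITS-CLIP, UV light links Ago to its bound RNA, Ago is pulled down with an antibody, and the RNA fragments on it are sequenced. The deposited files are 2 lists of regions with more reads after one of the miR-342 mimics than after the negative control mimic, with the replicates merged, so each peak has a single score and no spread between replicates. They give no reads per library, and the depth is unknown. Both lists share the negative control libraries.

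E2F proteins bind DNA and set the transcription of genes for S phase entry, DNA replication and mitosis. E2F1, E2F2 and E2F3 are known mainly as activators, E2F4 and E2F5 as repressors that work with pocket proteins, E2F6 as a repressor that acts apart from RB, and E2F7 and E2F8 as atypical repressors that need no DP partner. The other E2F proteins bind DNA as dimers with a DP protein such as the product of TFDP1. The RB protein holds the activators in check until cyclin-dependent kinases phosphorylate it in late G1. A mature miRNA guides Ago to RNA mainly through its seed, bases 2 to 8, and the arms of the miR-342 hairpin carry different seeds.

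The mature sequences, from RefSeq (GRCh38.p14), are printed with the seed in capitals because every site described here is read against them.
miR-342-3p: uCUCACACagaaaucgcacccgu
miR-342-5p: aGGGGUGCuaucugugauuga
Matches were searched on the strand of the mRNA. For miR-342-3p they were the 8mer GTGTGAGA, the 7mers GTGTGAG and TGTGAGA, and the 6mer TGTGAG that all of these contain. For miR-342-5p they were the 8mer GCACCCCA, the 7mers GCACCCC and CACCCCA, and the 6mer CACCCC. The exons of the 10 genes held 3 miR-342-3p and 3 miR-342-5p 7mers and no 8mer. These 6 sites are shown on GRCh37 (hg19) within 30 nt of sequence each, with the site in capitals.
E2F1 3′UTR, miR-342-3p (chr20:32264268-32264297, minus strand): gggggtgaatgtGTGTGAGcatgtgtgtgt
E2F3 3′UTR, miR-342-3p (chr6:20491902-20491931, plus strand): acatccccattGTGTGAGtggcatttcctt
E2F4 coding exon, miR-342-3p (chr16:67228618-67228647, plus strand): tcacctgaagaGTGTGAGtggtcccattga
TFDP1 3′UTR, miR-342-5p (chr13:114294980-114295009, plus strand): gagtttggacgGCACCCCtgctggcggata
E2F8 coding exon, miR-342-5p (chr11:19251270-19251299, minus strand): aaagtgtgacgcCACCCCAaggcctgagcc
E2F1 coding exon, miR-342-5p (chr20:32264624-32264653, minus strand): tcagcctttcccCACCCCAcgaggccctcg
Of these 6 sites, only that in the E2F1 3′UTR had its centre within 50 nt of a peak summit of the same arm, the distance used throughout for a site under a peak. The density of 7mers and 8mers in the merged exons of the 10 genes (38.0 kb) was 0.079 per kb for either arm, compared with 0.158 per kb for miR-342-3p and 0.179 per kb for miR-342-5p over all protein-coding genes.

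Ago peaks were present in 5 of the 10 genes. The miR-342-3p list had 2 peaks, in the 3′UTRs of E2F1 and TFDP1. The miR-342-5p list had 5 peaks in 4 genes, in coding exons of TFDP1, E2F4 and RB1, across the start codon of RB1 and in an intron of E2F3. TFDP1 was the one gene with a peak for both arms, and E2F2, E2F5, E2F6, E2F7 and E2F8 had none. In the miR-342-3p list 11.8% of all protein-coding genes had a peak (2372 genes, 95% Wilson interval 11.3–12.2%) and in the miR-342-5p list 11.8% (2377 genes, 11.4–12.2%), beside which 2 and 4 of 10 are too few genes to set the E2F and RB group apart. Such intervals cover counting error only. Of all genes with a peak for one arm, 34.5% had a peak for the other (819 genes), as TFDP1 did. A gene needs to be transcribed to give a peak, and the level of these mRNAs was not analysed here. No peak of either list lay on the opposite strand of the 10 gene bodies.

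**Figure D1:**
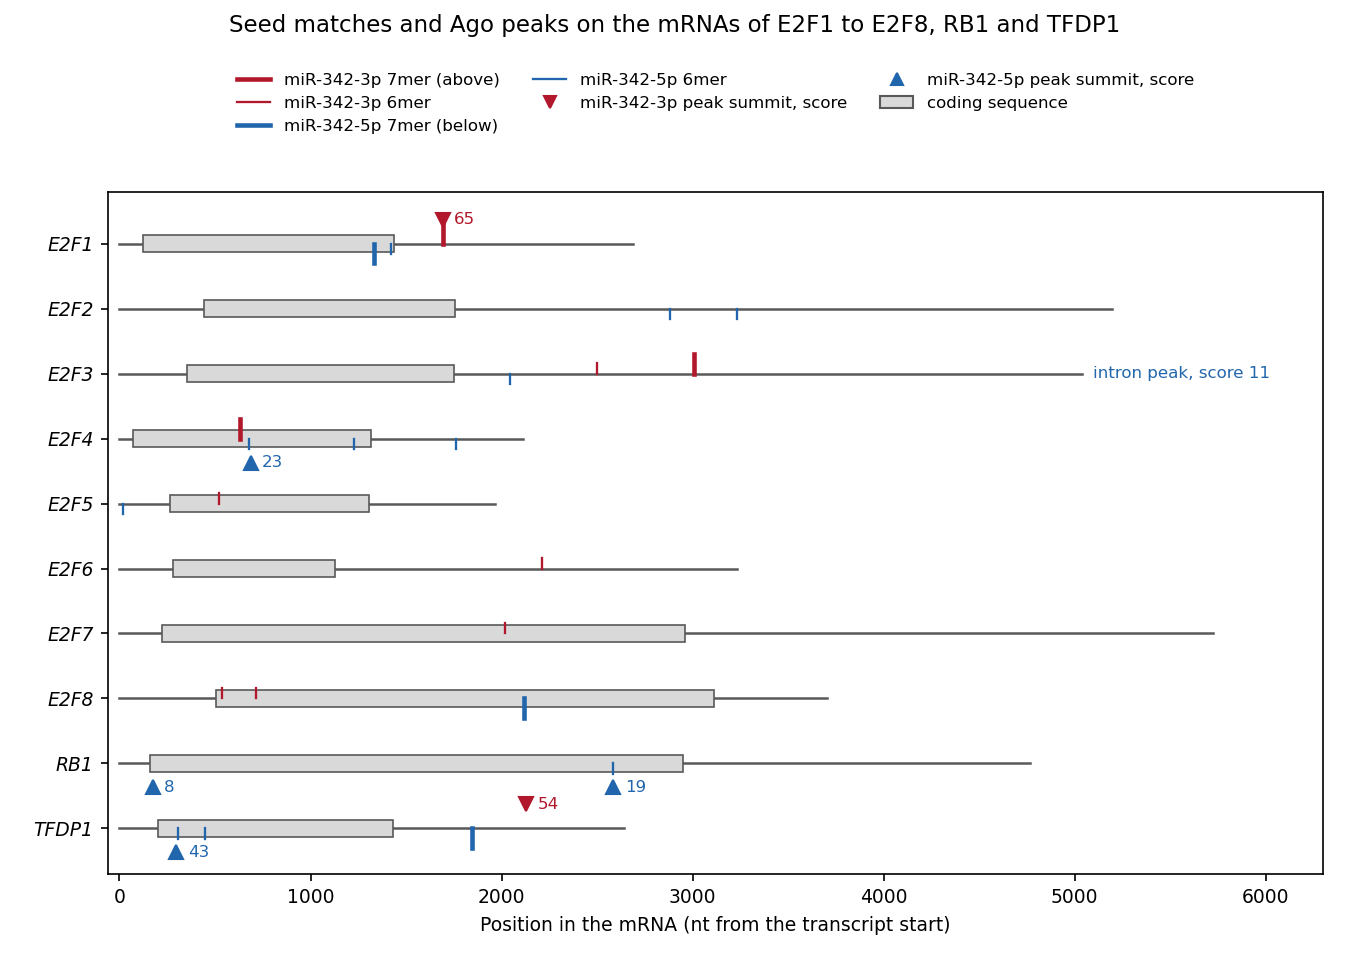
The mRNA of each gene is drawn to scale in nt from the transcript start, with the coding sequence as a box, miR-342-3p matches above the line, miR-342-5p matches below it, and peak summits as triangles with their scores. The E2F1 summit (score 65) sits on a 7mer, the TFDP1 miR-342-3p summit (54) lies away from any match, and the miR-342-5p summits of TFDP1 (43), E2F4 (23) and RB1 (19) sit at or near 6mers in the coding sequence.

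E2F1, the founding activator of the family, had a miR-342-3p peak centred on its 7mer. E2F1 (ENSG00000101412) lies on the minus strand at chr20:32263283-32274191 and has 7 exons, the last of which holds its whole 3′UTR of 1255 nt. The peak spanned 58 nt (chr20:32264263-32264320) with a score of 65, a value the authors describe as reads above background. The median of the miR-342-3p list was 24, with quartiles of 13 and 49, and 81.7% of its 3450 peaks scored lower. Among its 1180 peaks in 3′UTRs (median 26), 79.1% scored lower. The summit fell inside the 7mer GTGTGAG, 258 nt after the stop codon and 997 nt before the transcript end. In the miR-342-3p list, 23.5% of 3′UTR peaks had a 7mer or 8mer and 73.7% no match, so a seed match is the less common state in this location.

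Pairing between E2F1 and miR-342-3p was predicted to reach well past the seed. The energy predicted by RNAduplex, in which a more negative value means more stable pairing, was -24.4 kcal/mol, beside a median of -16.3 kcal/mol at all 3′UTR peaks of the miR-342-3p list, where 96.9% of peaks paired more weakly. The other arm, miR-342-5p, gave -13.3 kcal/mol with the same window. With miR-342-3p, all 7 seed bases and 17 miRNA bases in all were paired. These included 3 of the 4 bases from 13 to 16, the stretch known to add pairing 3′ of the seed. An alternating GU run of 10 nt lay around the summit, shorter than the 20 nt by which GU repeats were defined, and the peak was kept when peaks at such repeats were left out. A blastn search of the genome with the peak sequence gave 37 other hits, none at least 90% identical over its whole length. The best was 80.8% identical over 52 nt. The miR-342-5p 7mer of E2F1, in codon 405 of 437, had no peak, and E2F1 had no miR-342-5p peak.

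Both other miR-342-3p 7mers of the group had no peak. E2F3 (ENSG00000112242, chr6:20402110-20493945, plus strand) is also an activator, and its 3′UTR carries the same 7mer GTGTGAG as E2F1 at 20491913 to 20491919. This site lies 1255 nt after the stop codon and 2029 nt before the transcript end, further from both than the E2F1 site. Its predicted energy was -15.1 kcal/mol, with 15 paired miRNA bases including all 7 of the seed. A and U made up 50.8% of the bases around the E2F3 site and 44.3% of those around the E2F1 site. E2F4 (ENSG00000205250, chr16:67226058-67232821, plus strand), a repressor that pairs with pocket proteins, carries GTGTGAG in codon 186 of exon 6. Here the best predicted duplex used 4 of the 7 seed bases and reached -12.4 kcal/mol.

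Over all genes, 4.1% of 7007 miR-342-3p 7mers and 8mers in 3′UTRs (287 sites) and 6.73% of 4489 in coding exons (302 sites) had a peak. The share over all exons was 4.9%, so 1 of 3 sites in the E2F and RB genes is a count with no weight of its own. Sites with a peak had a median predicted energy of -18.3 kcal/mol in 3′UTRs and those without a peak -15.0 kcal/mol. The E2F1 site paired more strongly than 94.1% of the 3′UTR sites with a peak and 98.7% of those without. The E2F3 site paired more strongly than 20.6% and 50.3%, near the middle of the sites without a peak. For the E2F4 site these values among coding exon sites were 8.61% and 23.1%. The median share of A and U was 54.1% for 3′UTR sites both with and without a peak.

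**Figure D2:**
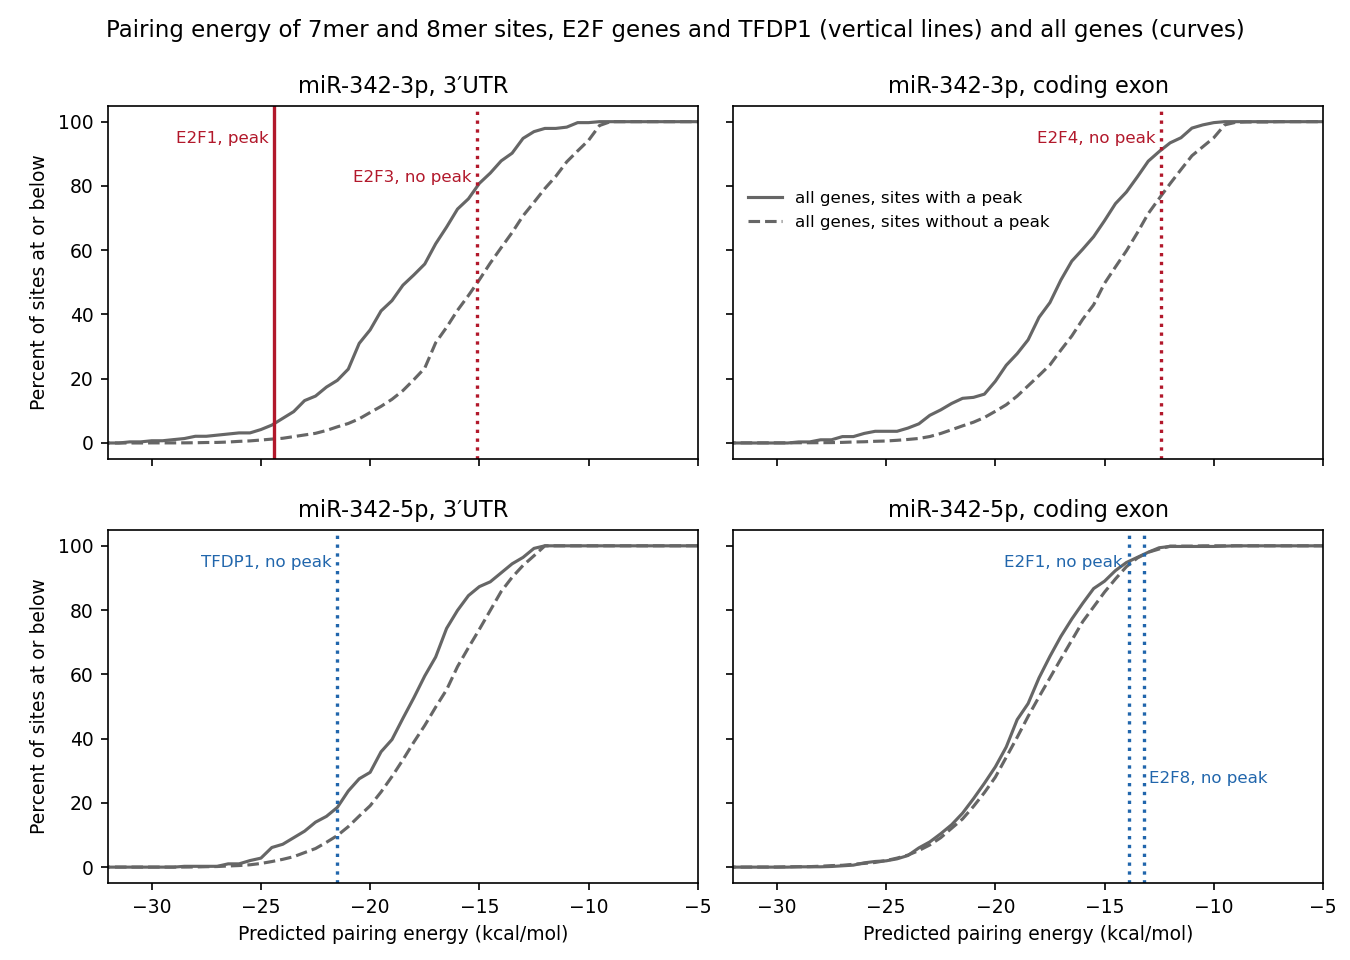
Curves give the percent of all 7mer and 8mer sites at or below each predicted pairing energy (kcal/mol, more negative is stronger) for sites with a peak (solid) and without a peak (dashed), by arm and location, and vertical lines mark the sites of E2F genes and TFDP1. E2F1 at -24.4 kcal/mol lies in the strong tail of the miR-342-3p 3′UTR curves and E2F3 at -15.1 kcal/mol near the median of sites without a peak, whereas the TFDP1 miR-342-5p site had no peak at -21.5 kcal/mol.

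TFDP1, which encodes DP1, the dimer partner of E2F1 to E2F6, had the other miR-342-3p peak. TFDP1 (ENSG00000198176) lies on the plus strand at chr13:114239036-114295788 with 12 exons. The peak spanned 46 nt of the 3′UTR in exon 12 (chr13:114295258-114295303), with its summit 695 nt after the stop codon and 511 nt before the transcript end. The score was 54, higher than 77.3% of the list and 74.0% of the 3′UTR peaks. It stood close to the E2F1 score of 65, but no error is known for either value and the difference cannot be judged. No 6mer, 7mer or 8mer lay within 50 nt of this summit, and neither did an offset 6mer nor a 7mer with a wobble, a mismatch or a bulged target base. A 7mer match with a bulged miRNA base was not searched for. Among the 2628 peaks of the list without a match, 47.6% had a 7mer with 1 mismatch or wobble, compared with 7.61% on the opposite strand.

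The predicted pairing of the TFDP1 peak ran along the whole miRNA, with its longest run on the 3′ part. The sequence is shown because none of the searched seed matches lay at this peak, with the bases paired in the predicted duplex in capitals.
TFDP1 3′UTR, miR-342-3p duplex (chr13:114295273-114295293, plus strand): tGCtGGTGCGGCTaTGGAGAc
The duplex spanned 21 nt over the summit. Its energy of -17.5 kcal/mol was stronger than at 61.9% of 3′UTR peaks in the same list. The other arm, miR-342-5p, gave -8.4 kcal/mol within 50 nt of the summit. The miR-342-3p duplex paired 17 miRNA bases, of which 5 were in the seed, and its longest run, GGTGCGG, faced miRNA bases 14 to 20. Its stretch TGGAGA is the 7mer TGTGAGA short of a T, a form of match that was not searched for. This word was present in 75 of the 2628 miR-342-3p peaks without a match (2.85%) and in 6 of the same windows on the opposite strand (0.228%). It was chosen from the TFDP1 peak, itself among the 75, so these shares describe the list and do not test the pairing. The TFDP1 3′UTR peak had near-copies at 4 other places in the genome, at least 90% identical over its whole length. The best was 95.7% identical over 46 nt (chr15:79849385-79849430, minus strand), where the annotation has no gene in that direction and neither list has a peak. Whether reads of such copies were placed at TFDP1 was not tested, since the threshold of the alignment quality filter that the authors applied with Samtools is not given in the sources used here.

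The miR-342-5p peaks lay outside 3′UTRs, and where a match was present in an exon it was the 6mer CACCCC. The 3 coding peaks with this 6mer are shown over their whole length, with matches in capitals. GTGTGAG in the E2F4 sequence is the miR-342-3p 7mer described above.
TFDP1 intron 3 end and exon 4 (chr13:114277488-114277544, plus strand): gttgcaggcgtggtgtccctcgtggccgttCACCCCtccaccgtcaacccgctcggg
E2F4 exon 6 (chr16:67228605-67228762, plus strand): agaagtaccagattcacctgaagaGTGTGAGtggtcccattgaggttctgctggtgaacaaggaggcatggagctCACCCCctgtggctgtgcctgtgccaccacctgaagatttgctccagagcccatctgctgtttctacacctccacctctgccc
RB1 exon 23 (chr13:49039341-49039451, plus strand): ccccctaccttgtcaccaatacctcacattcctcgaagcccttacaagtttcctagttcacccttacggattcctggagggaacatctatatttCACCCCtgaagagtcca
The E2F3 intron peak is shown with its 8mer, the longest match among the 7 peaks.
E2F3 intron 4 (chr6:20483709-20483760, plus strand): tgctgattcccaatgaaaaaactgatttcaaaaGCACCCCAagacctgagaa

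The TFDP1 peak in exon 4 had the highest score of the 5 miR-342-5p peaks, 43, above 78.6% of the 5010 peaks of the list (median 19, quartiles 11 and 37) and 78.0% of the 3487 peaks in coding exons. Its summit lay in codon 33 of 410, 17 nt from the start of the exon and 6 nt from the 6mer, and the first bases of the peak lay in the intron before it. The predicted energy was -16.9 kcal/mol, with 41.3% of coding peaks weaker. TFDP1 also had the strongest predicted miR-342-5p 7mer of the group, in its 3′UTR at 114294991 to 114294997, with no peak. That site lies 412 nt after the stop codon, and its energy of -21.5 kcal/mol was stronger than for 81.4% of miR-342-5p 3′UTR sites with a peak and 90.2% of those without. In TFDP1 the miR-342-5p peak thus lay at a 6mer of the coding sequence, and the 7mer of the 3′UTR had none.

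The E2F4 peak in exon 6 spanned 158 nt with a score of 23, above 57.8% of the list, and its summit in codon 205 of 413 lay 4 nt from a 6mer. It was the widest of the 7 peaks, against a median of 78 nt for the miR-342-5p list. The miR-342-3p 7mer of E2F4 lay inside this miR-342-5p peak but more than 50 nt from its summit, and had no miR-342-3p peak. The predicted energy at the summit was -18.4 kcal/mol, stronger than at 62.0% of coding peaks.

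RB1 (ENSG00000139687, chr13:48877880-49173572, plus strand), the pocket protein gene, had 2 miR-342-5p peaks at opposite ends of its coding sequence. In exon 23 of 27, a peak with a score of 19, equal to the list median, had its summit in codon 808 of 928 inside a 6mer, and its energy of -17.8 kcal/mol was close to the median of coding peaks, -17.5 kcal/mol. In exon 1 a peak of 97 nt (chr13:48877985-48878081) ran across the start codon, with its midpoint in the 5′UTR and its summit in codon 5. Its score of 8 was the lowest of the 7 peaks and higher than 8.4% of the list. Of the match types searched, only a 7mer with 1 mismatch lay within 50 nt of its summit, at 42 nt. A 7mer with 1 mismatch or wobble was present at 41.6% of the 2523 miR-342-5p peaks without a match and at 14.3% on the opposite strand. A and U made up 24.8% of the bases around the summit, the lowest of the 7 peaks. RB1 exons held no 7mer or 8mer of either arm and 1 miR-342-5p 6mer, the one under the exon 23 peak.

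The E2F3 peak lay in intron 4, 593 nt from the nearest splice site, with its summit inside the 8mer GCACCCCA at 20483742 to 20483749. Its score was 11, against a median of 14 for the 256 miR-342-5p peaks in introns, of which 27.3% scored lower. An 8mer was present at 42.6% of those intron peaks, and a 7mer or 8mer at 192 of the 256. The predicted energy was -18.5 kcal/mol, near the intron median of -19.0 kcal/mol. The exons of E2F3 held no miR-342-5p 7mer or 8mer.

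**Figure D3:**
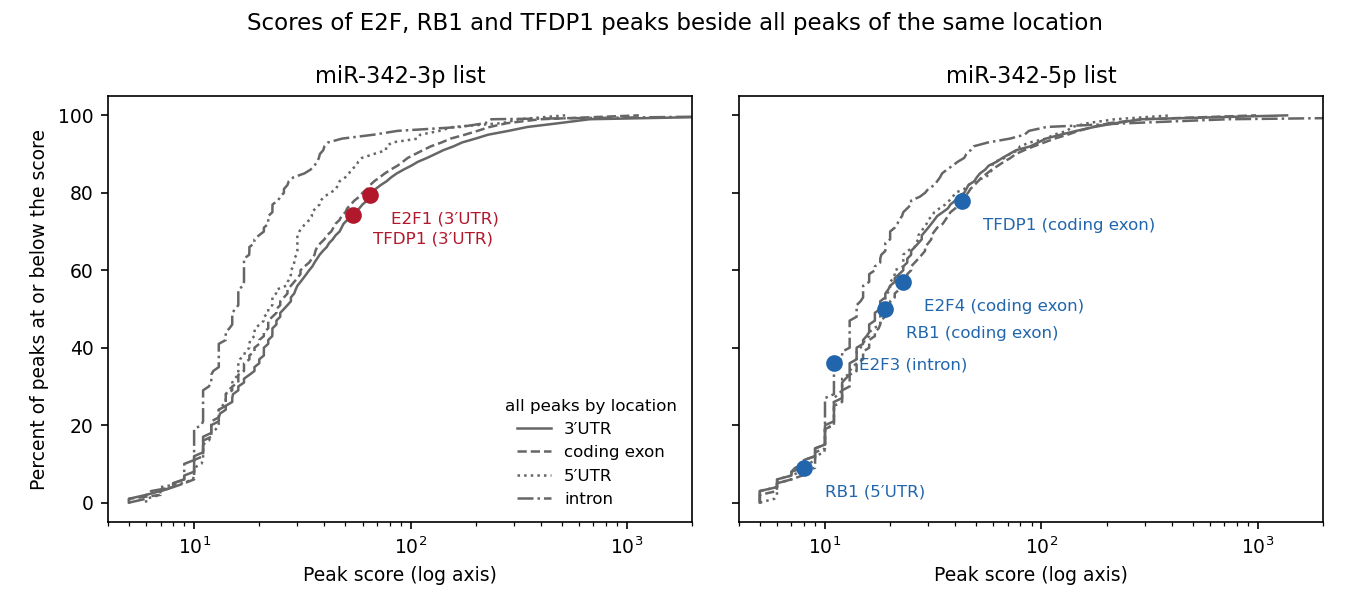
Curves give the percent of all peaks at or below each score (log axis) by location in each list, and points mark the 7 peaks of E2F1, E2F3, E2F4, RB1 and TFDP1 on the curve of their own location. The miR-342-3p points at 65 and 54 lie in the upper part of the 3′UTR curve, and the miR-342-5p points spread from 8 to 43.

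Matches of 6 nt outside any longer match were counted apart. Of 12 miR-342-5p 6mers in exons of the 10 genes, 3 had a peak, all 3 among the 6 in coding exons, and none of 4 in 3′UTRs and 2 in 5′UTRs. Over all genes 8.24% of 7959 miR-342-5p 6mers in coding exons and 2.44% of 10106 in UTRs had a peak. A 6mer was the best match at 16.3% of miR-342-5p peaks in coding exons, while 56.3% had no match. None of 6 miR-342-3p 6mers had a peak (2 in 3′UTRs, 4 in coding exons), compared with 0.702% of 15377 over all genes. None of the 3 miR-342-5p 7mers had a peak, where the shares over all genes were 6.27% of 6266 sites in 3′UTRs, 14.5% of 6653 in coding exons and 9.9% over all exons. The coding 7mers of E2F8 and E2F1 had predicted energies of -13.2 and -13.9 kcal/mol, weaker than at most coding sites with a peak, whose median was -18.55 kcal/mol.

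The 5 genes without a peak differed in length and in matches. E2F2 (chr1:23832930-23857725, minus strand), an activator, has the longest 3′UTR of the group, 3442 nt, with 2 miR-342-5p 6mers and no longer match. E2F6 (chr2:11584501-11606303, minus strand), the RB-independent repressor, has 1 miR-342-3p 6mer in its 3′UTR. E2F7 (chr12:77415028-77459349, minus strand), an atypical repressor, has 1 miR-342-3p 6mer in codon 597. E2F5, a repressor of the pocket protein type, has 1 6mer for each arm. E2F8 (chr11:19245610-19263167, minus strand), the other atypical repressor, was the only one of the 5 with a 7mer, the miR-342-5p site in codon 537 of exon 10, besides 2 miR-342-3p 6mers in its coding sequence. Over all genes, 40.9% had a miR-342-3p 7mer or 8mer in an exon, of which 17.1% had a miR-342-3p peak, and 41.6% had one for miR-342-5p, of which 19.5% had a miR-342-5p peak.

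Around the E2F and RB genes, a peak in either list was found in 19 of 47 genes of the pathway. This is a larger share than the 19.5% over all protein-coding genes (3930 of 20163). A miR-342-3p peak was present in 9 of them (19.1%) and a miR-342-5p peak in 15 (31.9%), beside 11.8% of all genes in each list. The D-type cyclins and their kinases, which phosphorylate RB, had the highest miR-342-5p score in the pathway. CCND1, the gene of cyclin D1, had a 3′UTR peak for miR-342-5p with a score of 404, above 99.3% of the list, at a 7mer. CDK6 had a miR-342-5p peak of 39 at an 8mer in its coding sequence, and CDK4 a miR-342-3p peak of 43 at a coding 8mer with a second peak of 8. CCND2 had a miR-342-5p peak of 10 at a 6mer and CCND3 none. FOXM1, a mitotic transcription factor, had 3 miR-342-5p peaks, the highest with a score of 41 at an 8mer in the 3′UTR. In the pathway, the highest peak had a 7mer or 8mer in 3 of 9 genes for miR-342-3p and 8 of 15 for miR-342-5p. The same share for the highest peaks of all genes was not counted, so these counts do not set the pathway apart. The sites of CCND1, CDK6, CDK4 and FOXM1 are shown in capitals as 4 examples. They are full seed matches under a peak, which the 10 genes had only in E2F1 and the E2F3 intron.
CCND1 3′UTR, miR-342-5p (chr11:69468794-69468823, plus strand): caaaagaatttGCACCCCgctgcgggccca
CDK6 coding exon, miR-342-5p (chr7:92462404-92462433, minus strand): gagaccttcgaGCACCCCAacgtggtcagg
CDK4 coding exon, miR-342-3p (chr12:58145376-58145405, minus strand): ggccctcaagaGTGTGAGAgtccccaatgg
FOXM1 3′UTR, miR-342-5p (chr12:2967725-2967754, minus strand): caaggctcagtGCACCCCAagcctctgagt

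Of the other DP and pocket protein genes, RBL1 (p107) had a miR-342-3p peak of 13 in a coding exon with no match. TFDP2, TFDP3 and RBL2 (p130) had none, although TFDP2 holds 5 miR-342-3p 7mers or 8mers. Of the E- and A-type cyclins with CDK2, CCNE2, the gene of cyclin E2, had a miR-342-3p peak of 163 in a coding exon and CCNA2, the gene of cyclin A2, a miR-342-5p peak of 36, both with no match, and CCNE1 and CDK2 had none. Of 7 CDK inhibitor genes, CDKN1B (p27) had a 3′UTR peak of 46 for miR-342-3p, again with no match. In MuvB, the complex that shares partners with E2F4 and RBL2, the histone-binding subunit gene RBBP4 had a 3′UTR miR-342-3p peak of 116 with no match and miR-342-5p peaks of 25 and 15. LIN52, another subunit gene, had a miR-342-5p peak of 19 at an intronic 8mer and MYBL1, a MYB partner of the complex, one of 26 at a coding 7mer.

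Among 8 RB corepressor genes, SIN3A, a scaffold of histone deacetylase complexes, and SMARCA4, the ATPase of SWI/SNF chromatin remodellers, had 5 miR-342-5p peaks each, with scores of 12 to 30 and 10 to 21. KDM5A, a histone demethylase, had a miR-342-5p peak of 16. DNMT1, the maintenance DNA methyltransferase, had 2 miR-342-3p peaks of 59 and 56 and 2 miR-342-5p peaks of 33 and 27. Of 11 genes of the E2F6 repressor complex, L3MBTL2, a Polycomb protein, MAX, a DNA-binding partner of MYC and MGA, and EHMT2, a histone H3 methyltransferase, each had a peak in both lists. Their scores ranged from 13 to 41 for miR-342-3p and from 10 to 24 for miR-342-5p. Of the 7mers and 8mers in exons of the 47 genes, 4 of 40 miR-342-3p sites and 10 of 44 miR-342-5p sites (22.7%) had a peak, beside 4.9% and 9.9% over all genes. The part of mRNA level in these shares was not tested. In genes holding a peak for miR-342-5p, 10.3% of miR-342-3p sites in 3′UTRs and 15.4% of those in coding exons had a peak. In genes holding a peak for miR-342-3p, these shares of miR-342-5p sites were 15.9% and 34.9%.

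**Figure D4:**
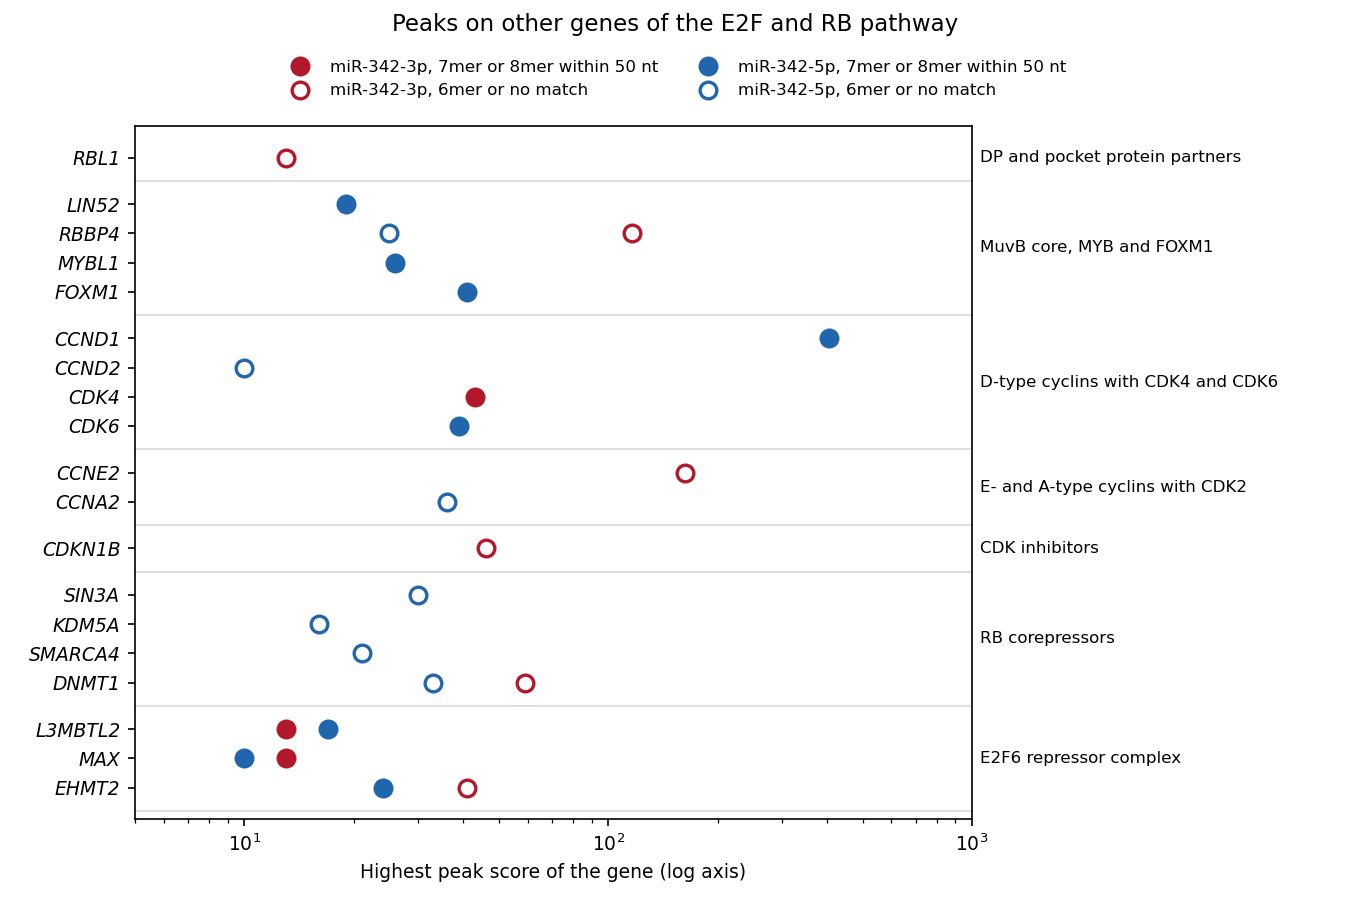
Each point is the highest peak score (log axis) of a pathway gene in the miR-342-3p list (red) or miR-342-5p list (blue), filled where a 7mer or 8mer lay within 50 nt of that peak's summit. The CCND1 point at 404 lies furthest to the right, and CCNE2 (163) and RBBP4 (116) have the highest miR-342-3p scores, without a 7mer or 8mer.

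Peaks were also looked up in genes that mark mesenchymal-like or epithelial breast cancer cells and in receptor genes. Of the mesenchymal-like markers, CD44, MSN and EGFR had peaks in both lists, while VIM and CAV1 had none. The highest scores were 268 for CD44 (miR-342-5p), 1134 for MSN and 171 for EGFR (both miR-342-3p). No peak was present in KRT8, KRT18, EPCAM, CDH1 or ESR1, and ERBB2 had peaks of 11 and 13. A peak shows that an RNA was present, and its absence shows nothing about the RNA, so this lookup cannot check the identity of the cells.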

How the data were processed

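Ago-HITS-CLIP libraries (9 libraries, 3 per mimic) were made by the authors, and the submitters' processing notes name cutadapt 1.13, UMI-tools, TopHat2 2.0.13, hg19 and MACS2 2.1.1.20160309. The authors deposited 2 merged peak lists with positions, strand, summit and a score (reads above background, at least 5). Samtools was used by the authors to filter alignments on quality. The threshold of that filter and how libraries were scaled are not given in the sources used here. The lists hold no depth or replicate error, so values are given as descriptions with no test.

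Positions were read as 0-based starts, printed 1-based, and placed on GRCh37 with GENCODE release 44 (lifted, basic transcripts, 1 representative transcript for codons and distances) in Python 3.11.15, pandas 2.3.3 and pysam 0.24.0. A location was taken in the order 3′UTR, coding exon, 5′UTR, non-coding exon, intron. Pairing energy used RNAduplex 2.7.2 over 50 nt each side of a summit or 25 nt each side of a site. The share of A and U covered 30 nt each side of a site and 50 nt each side of a summit. Near-copies used blastn 2.17.0 (E value up to 1e-03). Scripts were tested on simulated data.

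The 10 genes, pathway lists and rules were chosen with earlier results of these data known. Named genes were all 10, every gene of a pathway list of 5 or fewer, and in longer lists each gene with a peak. Alternatives changed the minimum score, window, site types, gene rule and transcripts.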

Additional observations from a re-analysis of the deposited data

How the results depend on the processing

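No paired analysis was possible because the lists merge the replicates, and for the same reason no replicate could be left out. With 8mers alone, the E2F and RB genes had 0 miR-342-3p peaks with a site (1 with 7mers), 0 exon sites of either arm (3 each) and 0 miR-342-3p sites with a peak (1). With 6mers added, there were 9 exon sites for miR-342-3p and 15 for the other arm, 4 miR-342-5p peaks with a site (from 1) and 3 miR-342-5p sites with a peak (from 0). At a score above 50, 0 of the 4 genes and 0 of the 5 peaks remained for miR-342-5p, and 0 miR-342-5p peaks had a site, while both miR-342-3p peaks stayed. With all transcripts, miR-342-5p exon sites were 5. In the other 56 combinations of these counts and settings (scores of at least 10, windows of 25 and 100 nt, sites inside the peak, overlap in place of midpoint, exons alone, 1 transcript per gene, GU repeats left out) the counts stayed within 1.5 times. The share of all protein-coding genes with a peak fell, at a score above 50, to 3.47% (miR-342-3p) and 2.85% (miR-342-5p). The share of exon sites with a peak was 14.6% and 16.7% for 8mers alone, 2.61% and 7.18% with 6mers, and 1.55% and 2.44% at a score above 50 (from 4.9% and 9.9%). The scores of 8 and 11 in RB1 and E2F3 lie near the minimum of 5, below the lower quartile or at it (11) in the miR-342-5p list.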
